A study of Homo sapiens with 8 samples.

Results

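The replication origin licensing genes are 10 genes whose proteins prepare the start sites of DNA replication, and their mRNA was followed in EA.hy926 cells, a permanent endothelial line made by fusing human umbilical vein endothelial cells with a lung carcinoma line. They were chosen by name (MCM2, MCM3, MCM4, MCM5, MCM6, MCM7, MCM10, CDC6, CDT1 and ORC1), with the transcript of the highest mean level kept for each, and they make up 10 of the 27946 genes in the expression table. All 10 were among the 13790 genes expressed highly enough to be tested. The 8 libraries were made from total RNA after removal of ribosomal RNA. They comprise 2 control libraries of EA.hy926, 3 clones in which the enhancer E2 was deleted (ΔE2) and 3 clones deleted for SE12313-b, an element of the same super-enhancer on chromosome 16 (ΔSE12313-b). Each element was removed from EA.hy926 with Cas9 protein and guide RNAs at both of its ends, and the cells were then diluted to select clones. Each deletion library comes from 1 clone, and a property of a clone cannot be told apart from an effect of its deletion. The study describes controls given guide RNAs for another assay, and the sources used here do not state whether the control RNA came from such cells.

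Licensing is the loading of the replicative helicase onto DNA before S phase. The origin recognition complex, with ORC1 as its largest subunit, binds the origin, CDC6 joins it, and CDT1 delivers the ring made of MCM2 to MCM7, which is loaded as an inactive double hexamer. MCM10 acts later, when the helicase is switched on together with CDC45 and the GINS complex. Many of these genes are targets of the E2F transcription factors, are transcribed from late G1 into S phase and are silent in resting cells, so their mRNA is widely used to mark proliferating cells.

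The table gives expression as FPKM, a measure scaled to both transcript length and library size, so that the levels of different genes can be set beside each other. The libraries held 12067557 to 19101151 reads, and whole read numbers could be recovered behind the FPKM values. A differentially expressed gene (DEG) had a Benjamini-Hochberg adjusted p under 0.05 by limma and a change of at least 2-fold. The control libraries differed from each other little beyond counting noise (chi-square per degree of freedom 1.19), whereas clones of 1 deletion differed more (3.98 to 22.8). Of 8 endothelial markers 7 had a mean of 0.5 FPKM or more in each group, with KDR at 0.047 to 0.292 FPKM. VWF was a downregulated DEG in both deletions, under 0.5 FPKM in some clones, while PECAM1 was an upregulated DEG in both and ESAM in ΔE2. The epithelial keratins KRT8 and KRT18 were present while CDH1 was at 0 in every library. The summed level of the 5 epithelial markers, nearly all from KRT8 and KRT18, was 232 to 239 FPKM in the controls. It was 613 to 752 in ΔE2 and 541 to 669 in ΔSE12313-b, and its part in the results was not tested. EPCAM went the other way, at means of 0.399 FPKM in the controls, 0.186 in ΔE2 and 0.0497 in ΔSE12313-b, and KRT19 was at most 0.16. The 8 endothelial markers summed to 363 to 364 FPKM in the controls, 374 to 547 in ΔE2 and 357 to 512 in ΔSE12313-b.

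Every licensing gene was expressed at a higher level in both deletions than in the control cells. All 10 were upregulated DEGs in ΔE2, where 11.2% of the genes tested were upregulated DEGs, and all 10 in ΔSE12313-b, where 14.7% were. ORC1 and MCM10 were under 0.5 FPKM in both controls and were tested only because of their level in the clones. Their test against the controls was therefore bound to favour a rise. The median log2 fold change of the 10 genes was 3.23 in ΔE2 and 3.19 in ΔSE12313-b, beside 0.14 and 0.27 over all genes tested. For each of the 10 genes, every clone lay above both controls, which also held for 44.8% of all genes tested in ΔE2 and for 51.6% in ΔSE12313-b. Centring each library on its median log2 ratio, which took out the general shift, left the 10 genes at medians of 3.07 and 2.91, while the DEGs over all genes went from 1544 up and 1153 down to 1170 and 1464 in ΔE2 and from 2032 and 1080 to 1201 and 1570 in ΔSE12313-b. Reads on the genes in the table were a smaller share of all reads in the controls (8151615 of 12696177 and 7802427 of 12067557) than in every clone. In the clones numbered 1 they were 13374260 of 19101151 in ΔE2 and 12588539 of 16085523 in ΔSE12313-b. The part of this share in the general shift was not tested. Both deletions were set against the same 2 control libraries, so the 2 sets of values are not independent of each other. From bulk RNA alone, a change in the share of cells that express these genes and a change in their mRNA per cell cannot be told apart. The study also measured the cell cycle phases and proliferation of these clones. It reports that they proliferated less than its control cells, with a larger share of cells in G0/G1 and a smaller share in S phase. Those measurements were not analysed here.

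**Figure D1:**
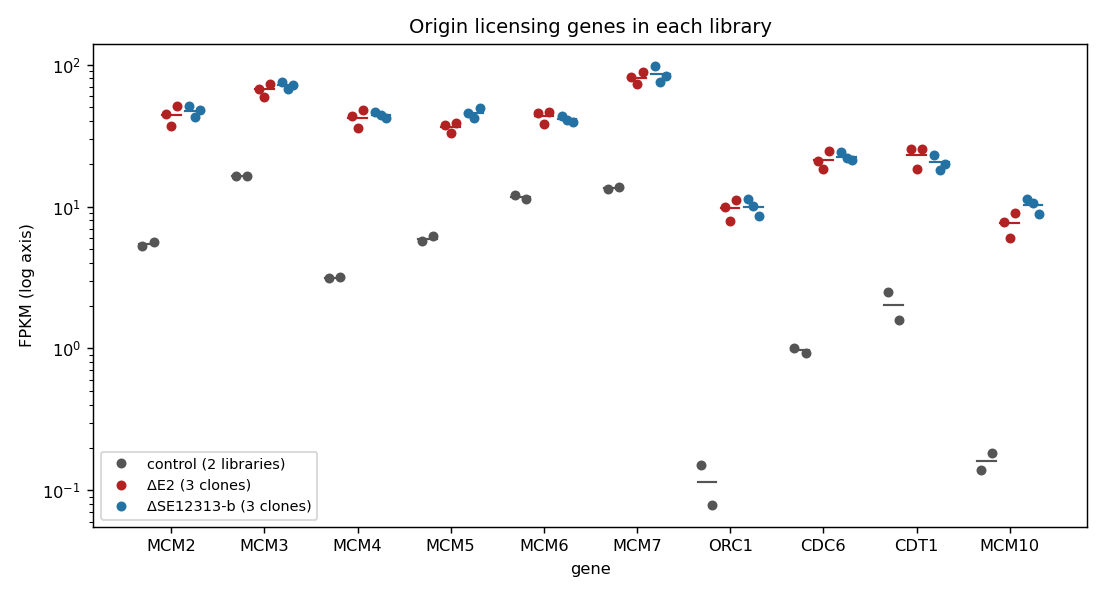
FPKM of each licensing gene (horizontal axis) in each of the 8 libraries on a log axis, with colour for the group and a bar at the group mean. The clones of both deletions lie above both controls for all 10 genes, with ORC1 at 0.079 to 0.150 FPKM in the controls and 7.91 to 11.2 in the clones.

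The helicase subunits MCM2 to MCM7 were present in the control cells and rose by 1.81 to 3.76 on the log2 scale. MCM4 (GRCh37 chromosome 8, 48872763 to 48890719, plus strand), 1 of the 3 subunits of the catalytic core of the ring with MCM6 and MCM7, was the lowest of the 6 in the controls, at 3.13 and 3.19 FPKM. Its level was 43.3, 35.7 and 48.1 FPKM in the ΔE2 clones and 46.5, 43.9 and 42.3 FPKM in the ΔSE12313-b clones. The clones of the deletions overlapped and stood far from the controls, with a log2 fold change of 3.69 ± 0.12 (SE, adjusted p = 4.30e-07) in ΔE2 and 3.76 ± 0.12 (adjusted p = 3.98e-07) in ΔSE12313-b, the largest of the 6 subunits.

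MCM2 (chromosome 3, 127317200 to 127341278, plus strand), a subunit that also binds histones at the fork, was at 5.29 and 5.59 FPKM in the controls. It reached 45.1, 37.3 and 50.8 FPKM in ΔE2 and 51.2, 42.8 and 48.0 FPKM in ΔSE12313-b. Its log2 fold change was 2.99 ± 0.13 (SE, adjusted p = 1.86e-06) and 3.09 ± 0.13 (adjusted p = 1.43e-06), so the rise was close to 3 doublings in either deletion.

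MCM5 (chromosome 22, 35796116 to 35820495, plus strand), which with MCM2 forms the gate through which DNA enters the ring, was at 5.70 and 6.17 FPKM in the controls. It was at 37.9, 33.0 and 38.7 FPKM in ΔE2 and at 45.6, 42.1 and 49.8 FPKM in ΔSE12313-b. The log2 fold change was 2.60 ± 0.10 (SE, adjusted p = 8.95e-07) in ΔE2 and 2.93 ± 0.10 (adjusted p = 5.55e-07) in ΔSE12313-b. MCM5 was the only licensing gene for which the clones of 1 deletion lay apart from those of the other, with all 3 ΔSE12313-b clones above all 3 ΔE2 clones, and 40.8% of all genes tested were also separated in this way.

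MCM7 (chromosome 7, 99690351 to 99699563, minus strand) and MCM3 (chromosome 6, 52128812 to 52149679, minus strand) were the most highly expressed licensing genes in every group. MCM7 was at 13.4 and 13.7 FPKM in the controls, at 81.7, 72.6 and 89.2 FPKM in ΔE2 and at 98.0, 76.1 and 83.1 FPKM in ΔSE12313-b. MCM3 was at 16.3 and 16.5 FPKM in the controls, at 67.6, 59.6 and 73.6 FPKM in ΔE2 and at 75.6, 67.7 and 71.8 FPKM in ΔSE12313-b. The log2 fold change of MCM7 was 2.57 ± 0.12 (SE, adjusted p = 2.60e-06) in ΔE2 and 2.64 ± 0.12 (adjusted p = 2.01e-06) in ΔSE12313-b. MCM3 changed less, by 2.02 ± 0.10 (adjusted p = 2.62e-06) and 2.12 ± 0.10 (adjusted p = 1.95e-06), so MCM7 passed MCM3 and ranked first in the clones.

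MCM6 (chromosome 2, 136597196 to 136634047, minus strand) had the smallest rise of the 10 genes. Its level was 12.1 and 11.3 FPKM in the controls, 45.8, 38.4 and 46.4 FPKM in ΔE2 and 43.7, 40.7 and 39.5 FPKM in ΔSE12313-b. This was a log2 fold change of 1.88 ± 0.10 (SE, adjusted p = 4.36e-06) and 1.81 ± 0.10 (adjusted p = 4.62e-06), and even here the groups were well apart.

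The 6 subunits stand in the ring in equal numbers, and their mRNA levels were closer to each other in the clones than in the controls. The highest of the 6 was 5.21 and 5.18 times the lowest in the controls, with MCM3 at the top and MCM4 at the bottom. The same ratio was 2.16, 2.20 and 2.31 in ΔE2, with MCM7 over MCM5, and 2.24, 1.87 and 2.11 in ΔSE12313-b, with MCM7 over MCM6. No clone reached the controls. Relative to the geometric mean of the 6 in each library, MCM4 went from 0.394 in the controls to 0.840 in ΔE2 and 0.823 in ΔSE12313-b, while MCM3 went from 2.04 to 1.33 in both and MCM6 from 1.46 to 0.867 and 0.769. MCM7, at 1.69, 1.62 and 1.59, kept nearly the same place in the 3 groups. These ratios are descriptions, without a test.

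**Figure D2:**
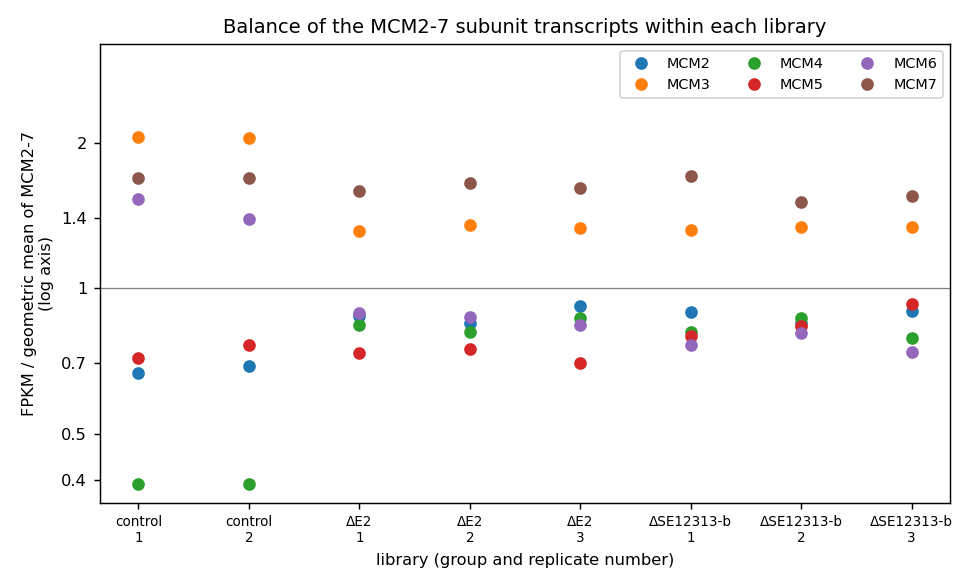
FPKM of MCM2 to MCM7 divided by their geometric mean in the same library (log axis) for each library on the horizontal axis, 1 colour per subunit. The spread from lowest to highest is 5.18 to 5.21 times in the controls and 1.87 to 2.31 times in the clones, as MCM4 moves up and MCM3 and MCM6 move down.

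The mRNAs of the factors that recognise the origin and load the ring were lower in the control cells than those of the 6 ring subunits. ORC1 and CDC6 rose further than any ring subunit, and CDT1 further than all but MCM4. ORC1 (chromosome 1, 52838501 to 52870143, minus strand), the subunit of the origin recognition complex whose protein is degraded after each S phase, was at 0.150 and 0.079 FPKM in the controls, from 6 and 3 reads. It was at 9.98, 7.91 and 11.2 FPKM in ΔE2, from 426 to 600 reads, and at 11.2, 10.2 and 8.64 FPKM in ΔSE12313-b, from 432 to 568 reads. The controls were near the limit of detection, and every clone was far above them. The log2 fold change was 5.52 ± 0.20 (SE, adjusted p = 7.36e-07) in ΔE2 and 5.57 ± 0.20 (adjusted p = 6.99e-07) in ΔSE12313-b. Of the genes tested, 0.0798% and 0.0943% rose by more. ORC1 passed the filter of 0.5 FPKM through the clones alone, so its call and its rank are descriptions. The fold changes understate the rise because 0.1 was added to each FPKM. The pooled reads gave 83.1 times the control in ΔE2 (exact 95% interval for counting error only, 43.7 to 182.0) and 86.7 times in ΔSE12313-b (45.5 to 190.0).

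CDC6 (chromosome 17, 38444146 to 38459413, plus strand), the ATPase that completes the ring loader, was at 1.01 and 0.927 FPKM in the controls. It was at 21.0, 18.4 and 24.5 FPKM in ΔE2 and at 24.2, 22.1 and 21.1 FPKM in ΔSE12313-b. The clones of both deletions covered the same range, at a log2 fold change of 4.32 ± 0.13 (SE, adjusted p = 3.26e-07) and 4.40 ± 0.13 (adjusted p = 3.01e-07).

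CDT1 (chromosome 16, 88870186 to 88875666, plus strand), the partner that brings the ring to the origin and is the target of geminin, was at 2.48 and 1.59 FPKM in the controls. It was at 25.4, 18.5 and 25.6 FPKM in ΔE2 and at 23.3, 18.1 and 20.1 FPKM in ΔSE12313-b. The controls differed more from each other for CDT1 (84 and 51 reads) than for the ring subunits, and the log2 fold change had a larger error, 3.46 ± 0.22 (SE, adjusted p = 1.04e-05) in ΔE2 and 3.29 ± 0.22 (adjusted p = 1.11e-05) in ΔSE12313-b.

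MCM10 (chromosome 10, 13203554 to 13253104, plus strand), which is not part of the ring and helps to activate it, was at 0.139 and 0.183 FPKM in the controls, from 8 and 10 reads. It was at 7.72, 6.02 and 9.05 FPKM in ΔE2 and at 11.4, 10.7 and 8.92 FPKM in ΔSE12313-b. The log2 fold change was 4.87 ± 0.19 (SE, adjusted p = 8.93e-07) and 5.32 ± 0.19 (adjusted p = 6.23e-07). MCM10, like ORC1, passed the filter through the clones alone. The pooled reads gave 46.7 times the control (29.5 to 79.0) in ΔE2 and 64.3 times (40.6 to 109.0) in ΔSE12313-b, the largest rise of the 10 after ORC1 in either deletion.

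**Figure D3:**
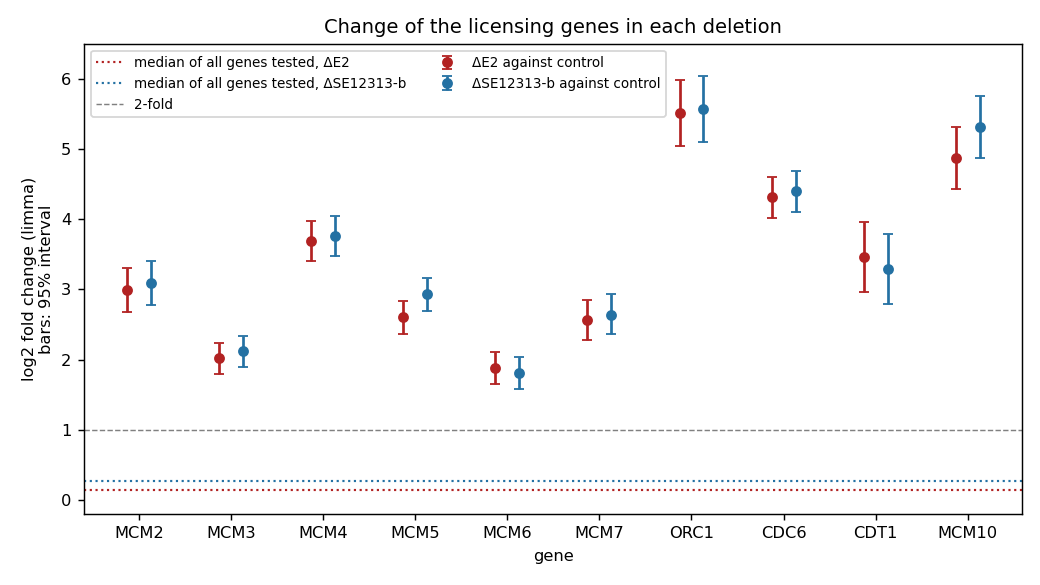
Log2 fold change of each licensing gene (horizontal axis) in ΔE2 and ΔSE12313-b against the control, on log2(FPKM + 0.1), with bars for the 95% confidence interval of limma, dotted lines at the medians of all genes tested (0.14 and 0.27) and a dashed line at a 2-fold change. All 10 genes lie above the dashed line, from 1.81 for MCM6 to 5.57 for ORC1, both in ΔSE12313-b.

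In all 3 groups the ring subunits were above CDT1 and CDC6, and these above MCM10 and ORC1. Within the ring the order differed, as MCM6 went from rank 3 in the controls to 4 in ΔE2 and 6 in ΔSE12313-b and MCM2 from rank 5 to 3 in both. In the controls each gene differed from its neighbour in the order without overlap except MCM10 (mean 0.161 FPKM) and ORC1 (0.114). In the clones, MCM2, MCM4, MCM5 and MCM6 were neighbours whose ranges overlapped, at means of 36.5 to 47.3 FPKM. CDT1 and CDC6 overlapped at 20.5 to 23.2 FPKM in both deletions, as did ORC1 and MCM10 at 7.60 to 10.3 FPKM.

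Between the deletions, 0 of the 10 genes passed both thresholds, where 4.23% of all genes tested did. By limma 2 had an unadjusted p under 0.05, MCM5 and MCM10, and 1 an adjusted p under 0.05, MCM5. The difference for MCM5 (ΔE2 minus ΔSE12313-b) was -0.33 ± 0.09 on the log2 scale (SE, 95% interval -0.54 to -0.12, adjusted p = 0.0342), at a threshold that 26.0% of all genes passed, and the adjusted p lay between 0.0227 and 0.162 over 19 other fits, at 0.05 or more in 11 of them. MCM10 was also lower in ΔE2, by -0.45 ± 0.17 (-0.84 to -0.06, adjusted p = 0.0900). For the other 8 genes the difference lay between -0.10 and 0.17, and the interval was -0.38 to 0.18 for MCM2, -0.31 to 0.10 for MCM3, -0.32 to 0.18 for MCM4 and -0.14 to 0.28 for MCM6. It was -0.33 to 0.18 for MCM7, -0.47 to 0.37 for ORC1, -0.35 to 0.18 for CDC6 and -0.28 to 0.61 for CDT1, so a difference of 1.5-fold (0.58) lay outside the interval of each of these genes but CDT1.

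The 10 genes moved together among the ΔE2 clones and only in part among the ΔSE12313-b clones. In ΔE2, the clone numbered 2 had the lowest level for 10 of 10 genes and the clone numbered 3 the highest for 10 of 10, while over all genes tested these clones were lowest and highest for 38.8% and 41.5%. Their median log2 level relative to the mean of the 3 clones was -0.22 and 0.18. In ΔSE12313-b, the clone numbered 1 was highest for 9 of 10 genes, with MCM5 the exception, and for 32.3% of all genes. The lowest was shared between the clones numbered 2 and 3, with 5 genes each (33.9% and 39.6% of all genes). Both of these clones had a median log2 level of -0.05 relative to the mean of the 3.

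A sequence feature was counted in the promoters of these genes, and its part in their rise was not tested. RefSeq promoters (GRCh38.p14, 250 bases before to 50 after the start) were given for 8 of the 10 genes, not for MCM4 and MCM5. Both strands were searched for the E2F-like words TTTCGCGC, TTTGGCGC, TTTCCCGC and TTTGCCGC. Of the 8 genes, 6 held at least 1 word, compared with 3.99% of 27305 genes. The stretches below show 1 match for each of the 6, with the matched letters in capitals, written along the strand of the gene. They lie at chr3:127598404-127598433 (MCM2, plus strand), chr6:52284728-52284757 (MCM3, minus), chr2:135876513-135876542 (MCM6, minus), chr7:100101388-100101417 (MCM7, minus), chr17:40287875-40287904 (CDC6, plus) and chr16:88803743-88803772 (CDT1, plus).
MCM2: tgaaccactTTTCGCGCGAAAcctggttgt
MCM3: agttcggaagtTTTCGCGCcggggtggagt
MCM6: ttggtcaggTTTGGCGCGAAAtctccagct
MCM7: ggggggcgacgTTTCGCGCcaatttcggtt
CDC6: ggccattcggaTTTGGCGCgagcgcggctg
CDT1: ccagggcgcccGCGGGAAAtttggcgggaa

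The matches of MCM2, MCM3, MCM7 and CDC6 lay within 15 bases of the start. In MCM2 and MCM6 the capitals span 12 bases because a word on 1 strand overlaps a word on the other, and MCM6 held a further such run, as MCM3 and MCM7 each held a further word. The promoters of ORC1 and MCM10 held none of the 4 words within their windows, where only exact copies were searched for. MCM6 held 4 matches, because each of its runs was counted on both strands. The CHR word TTTGAA, found in many genes of G2 and mitosis, was in 0 of the 8 promoters and in those of 18.2% of genes, and CCAAT was in 6 of 8 and in 39.7%. A match is a run of letters and does not show that a factor binds there.

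The genes that start next to a licensing gene on the other strand changed less than it did. A transcript of TPRA1 starts 92 bp from MCM2 in the opposite direction. The TPRA1 transcript measured here, that of the highest mean level, starts farther away, at 127309618 beside 127317200 for MCM2. It changed by -0.44 ± 0.15 in ΔE2 (adjusted p = 0.0421, less than 2-fold) and by 0.03 ± 0.15 in ΔSE12313-b (adjusted p = 0.869), beside 2.99 and 3.09 for MCM2. PRPF38A, 76 bp from ORC1, was at 0.16 (adjusted p = 0.302) and 0.25 (adjusted p = 0.112), and AP4M1, whose start lies 433 bp inside MCM7 on the opposite strand, at 0.44 (adjusted p = 0.0336) and 0.22 (adjusted p = 0.219). PRKDC, which encodes the catalytic subunit of the DNA-dependent protein kinase and starts 20 bp from MCM4, was a DEG in both deletions, at 1.27 ± 0.18 (adjusted p = 0.000714) and 1.51 ± 0.18 (adjusted p = 0.000235), against 3.69 and 3.76 for MCM4. The table's transcripts of MCM7 and AP4M1 overlap over 433 bp, and MCM2 overlaps a non-coding RNA on the other strand over 2330 bp, and whether the counting used strand is not stated for the table.

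Around each licensing gene, the median log2 fold change of the tested genes starting within 5 Mb lay between -0.10 and 0.34 in ΔE2 and between -0.22 and 1.02 in ΔSE12313-b, from 7 to 176 genes. The region of MCM10 stood apart in ΔSE12313-b, with a median of 1.02 over 32 genes, of which 53.1% were upregulated DEGs, and a median of -0.59 between the deletions beside -0.45 for MCM10 itself. Whether this region had a part in the level of MCM10 was not tested. The genes around MCM5 had a median of -0.15 between the deletions over 113 genes, beside -0.11 over all genes and -0.33 for MCM5.

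**Figure D4:**
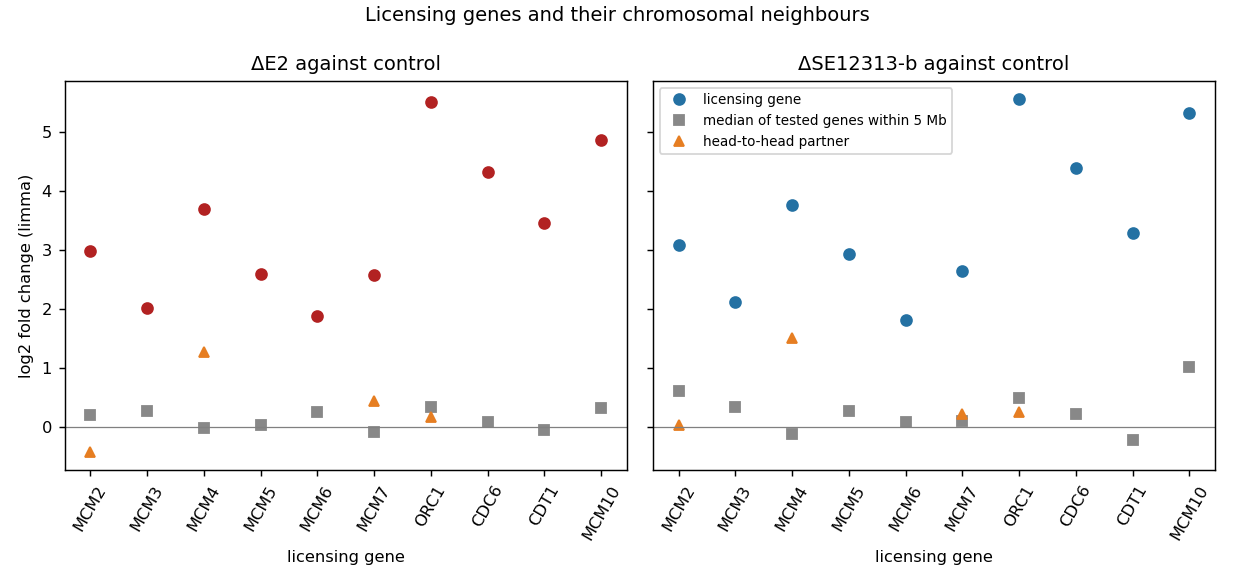
Log2 fold change of each licensing gene beside the median of the tested genes starting within 5 Mb of it and beside its divergent partner where there is one, for each deletion against the control. The TPRA1 transcript shown for MCM2 starts farther from it than the nearest TPRA1 transcript. The licensing genes lie at 1.81 to 5.57, above their regions, whose medians lie between -0.22 and 1.02.

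Of the genes that act with the licensing genes, 40 were listed by role and 39 tested, of which 26 rose past both thresholds in the ΔE2 clones and 27 in the ΔSE12313-b clones, where 11.2% and 14.7% of all genes tested did. None (0) was a downregulated DEG, compared with 8.36% of all genes in ΔE2 and 7.83% in ΔSE12313-b. The origin recognition complex contributed 1 gene beside ORC1. The 6 other genes listed with it were ORC2 to ORC6 and LRWD1, whose protein is associated with the complex and is not a subunit. Of these, ORC6 was a DEG, at 0.924 and 1.08 FPKM in the controls, 16.1 to 24.9 in ΔE2 and 16.4 to 18.2 in ΔSE12313-b (log2 fold change 4.22 ± 0.17, adjusted p = 1.06e-06, and 3.98 ± 0.17, adjusted p = 1.33e-06). The other 5 stayed under 2-fold, the highest being ORC5 at 0.85 (adjusted p = 0.00313) and 0.79 (adjusted p = 0.00384), with ORC3 at 0.77 (adjusted p = 0.000935) and -0.05 (adjusted p = 0.731) and LRWD1, which holds the complex on chromatin, at 0.26 (adjusted p = 0.123) and 0.55 (adjusted p = 0.0063). ORC3 differed between the deletions by 0.82 ± 0.10 (adjusted p = 0.00173, under 2-fold). The median of the 6 was 0.66 and 0.58.

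Among 12 genes that limit licensing or assist it, 5 in ΔE2 and 6 in ΔSE12313-b passed both thresholds upwards, with medians of 0.78 and 0.96. DTL, the receptor of the CUL4 ubiquitin ligase that destroys CDT1 in S phase, rose most, from 0.602 and 0.688 FPKM in the controls to 13.04 to 17.5 in ΔE2 and 14.2 to 16.9 in ΔSE12313-b (4.37 ± 0.14, adjusted p = 4.24e-07, and 4.39 ± 0.14, adjusted p = 3.98e-07). GMNN, encoding the CDT1 inhibitor geminin, SKP2, FBXO5 and GRWD1 were DEGs in both deletions. MCMBP, which binds the MCM ring, passed both thresholds in ΔSE12313-b (1.18, adjusted p = 1.77e-05) but not in ΔE2 (0.77, adjusted p = 0.00019), and the deletions differed by -0.41 (adjusted p = 0.00715, under 2-fold). Its call in ΔSE12313-b was lost with each library centred (0.89) and with quantile normalization (0.75). CUL4B, the scaffold of that ligase, was at -0.19 (adjusted p = 0.443) and 0.02 (adjusted p = 0.928), and FBXO31, another ligase subunit that acts on CDT1, at -0.11 (adjusted p = 0.483) and -0.48 (adjusted p = 0.0135, under 2-fold). Genes that promote licensing and genes that restrain it were both among the upregulated DEGs.

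The genes that turn licensed origins into active forks rose in both deletions. All 7 kinase and cyclin genes of S phase were upregulated DEGs in both deletions, with medians of 2.05 and 1.80. They ran from CDK2 (1.61 ± 0.09, adjusted p = 4.32e-06) to CCNA2, encoding cyclin A2 (4.37 ± 0.15, adjusted p = 4.73e-07), in ΔE2, and from DBF4B (1.71 ± 0.16, adjusted p = 6.82e-05) to CCNE2, encoding cyclin E2 (3.83 ± 0.31, adjusted p = 3.20e-05), in ΔSE12313-b. All 11 firing factors were also upregulated DEGs in both, with medians of 2.23 and 2.19. GINS2, a subunit of the GINS complex, led in both, from 0.537 and 0.777 FPKM in the controls to 24.5 to 34.7 in ΔE2 and 19.5 to 26.3 in ΔSE12313-b (5.28 ± 0.20, adjusted p = 8.49e-07, and 4.87 ± 0.20, adjusted p = 1.17e-06). The smallest changes were those of DONSON in ΔE2 (1.36 ± 0.14, adjusted p = 0.00012) and TICRR in ΔSE12313-b (1.25 ± 0.15, adjusted p = 0.0002). With each library centred, TICRR (0.96, adjusted p = 0.00105) and DONSON (0.98, adjusted p = 0.000589) fell just short of 2-fold in ΔSE12313-b, which left 9 of 11 firing factors, and with quantile normalization DONSON alone did (0.98), which left 10. Between the deletions, the largest difference among these genes was that of CCNA2, at 0.61 ± 0.13 (adjusted p = 0.0129, under 2-fold).

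Of the 4 relatives of the MCM family and its helpers, MCM8 and HROB (listed as C17orf53), which work together in homologous recombination, were upregulated DEGs in both deletions, HROB with 2.13 ± 0.18 (adjusted p = 5.13e-05) and 2.37 ± 0.18 (adjusted p = 2.28e-05). MCM9, the partner of MCM8, was at 2.28 and 2.12 FPKM in the controls, at 2.004 to 2.43 in ΔE2 and at 1.45 to 1.74 in ΔSE12313-b (0.05, adjusted p = 0.805, and -0.41, adjusted p = 0.0465, under 2-fold). MCMDC2 had at most 3 reads in any library and was not tested.

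**Figure D5:**
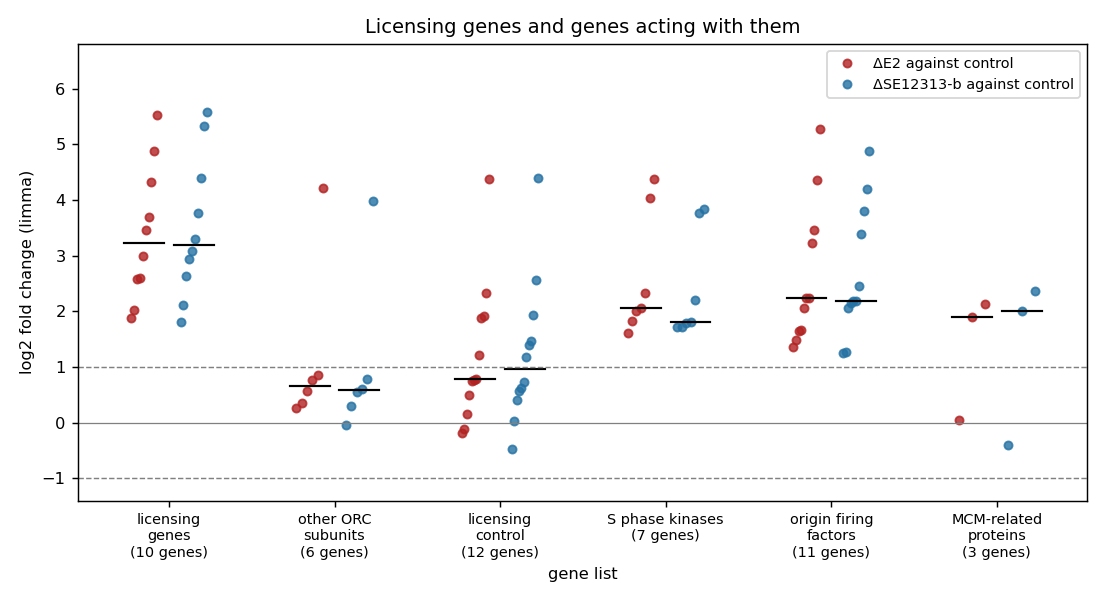
Log2 fold change against the control of the licensing genes and of the listed genes that act with them, by role (horizontal axis), with 1 point per gene, colour for the deletion, short lines at the list medians and dashed lines at a 2-fold change. The S phase kinases (1.61 to 4.37 in ΔE2) and firing factors (1.36 to 5.28 in ΔE2) lie above a 2-fold change throughout. The genes listed as other ORC subunits, which include the associated LRWD1, lie between -0.05 and 0.85 apart from ORC6, under a 2-fold change. Several genes of licensing control also lie under a 2-fold change.

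Outside these lists, the 5 genes whose profile over the 8 libraries was most like the median of the licensing genes were BRCA1, H2BFS, TYMS, BRIP1 and BLM. Their root mean square difference from that median was 0.0901, 0.0902, 0.0990, 0.109 and 0.122 on the log2 scale, compared with 0.159 for MCM2, the closest licensing gene, and 2.03 for ORC1, the farthest. H2BFS is a histone gene with near-identical copies, so its reads are uncertain.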

How the data were processed

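RNA-seq of 8 EA.hy926 libraries was analysed (2 control, 3 ΔE2 clones and 3 ΔSE12313-b clones, grouped by the labels). RNA was depleted of ribosomal RNA, and libraries were made with a directional kit. Per the submitters' processing notes, reads were trimmed with Trim Galore 0.4.4 and mapped to GRCh37 with STAR 2.5.4b. The authors deposited 1 table of FPKM per RefSeq transcript. The tool and RefSeq release behind it and its handling of strands are not given in the sources used here. The authors' own calls of DEGs used featureCounts values that were not used here.

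Of 65572 transcript rows, the row with the highest mean FPKM was kept for each of 27946 genes. Each FPKM value gave a whole number of reads within 0.1 read (100% of values checked). These reads served for depth, for count ratios, whose intervals cover counting error only, and for 1 alternative. The 13790 genes that reached 0.5 FPKM in 2 or more libraries were fitted with limma 3.58.1 (R 4.3.3) after log2(FPKM + 0.1) transformation (3 groups in 1 model, empirical Bayes with trend, two-sided, Benjamini-Hochberg over all 13790), so fold changes of low genes are understated. DEGs were genes whose adjusted p was under 0.05 and whose fold change was 2 or more. The fit was tested on simulated data, for ΔE2 against control, and 188 of 200 changed genes among 13522 were found with the right sign, beside 9 unchanged genes. The simulation gave every group the same spread and changed only genes above a set control level, which ORC1, MCM10 and CDC6 did not reach. Its rates therefore do not carry over to such low genes or to clones that vary more than the controls.

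The sources do not say that libraries came from separate cultures beyond the clones. With the 3 groups in 1 model, the variance behind each p-value was pooled over the control and clone libraries. The clones differed more from each other than the controls did, and the fit gave every group the same variance. The controls add only the spread between these libraries, which may not include that between separate cultures. The licensing genes and the lists of genes acting with them were chosen with earlier results of these data known. Named were the licensing genes, the genes with the largest and smallest change of each list in each deletion, listed genes that were not tested, genes starting within 1000 bp on the other strand, microRNA precursors inside MCM7 and the 5 genes of most similar profile. ORC5, GMNN, SKP2, FBXO5, GRWD1, MCMBP and MCM8 were named after their values were seen, to complete counts. Positions are GRCh37 from the table, and promoter sequences are RefSeq on GRCh38.p14. In total 21 alternative settings were tried.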

Additional observations from a re-analysis of the deposited data

Results flagged for a closer look

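MCM5 differed between the deletions by a test of the difference itself. Its level was -0.33 ± 0.09 on the log2 scale in ΔE2 relative to ΔSE12313-b (SE, adjusted p = 0.0342 by limma), with all 3 ΔE2 clones (33.0 to 38.7 FPKM) below all 3 ΔSE12313-b clones (42.1 to 49.8 FPKM). The difference kept its direction in 19 other fits, from -0.39 to -0.18, with an adjusted p of 0.05 or more in 11 of them. With each library centred it was -0.20 (adjusted p = 0.162).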

How the results depend on the processing

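All 10 licensing genes remained upregulated DEGs in both deletions and 0 were DEGs between the deletions under each of the 21 alternatives, with a largest adjusted p of 0.000354 in ΔE2 and 0.000335 in ΔSE12313-b. Their median log2 fold change was lowest with a pseudocount of 1 (2.84 in ΔE2 and 2.87 in ΔSE12313-b). ORC1 depended most on the pseudocount, at 3.25 and 3.30 with 1 and 6.33 and 6.38 with 0.01. Between the deletions, small differences turned sign. With each library centred they were 0.03 for MCM2, 0.03 for MCM3, 0.06 for MCM4, 0.05 for MCM7, 0.08 for ORC1 and 0.05 for CDC6, and with quantile normalization 0.05, 0.07, 0.07, 0.07, 0.07 and 0.04. With single libraries left out they ran from -0.20 to 0.02 for MCM2, -0.17 to 0.05 for MCM4, -0.16 to 0.03 for MCM7, -0.16 to 0.09 for ORC1 and -0.19 to 0.02 for CDC6, the upper values without ΔE2 replicate 2 or, for MCM7, ΔSE12313-b replicate 1. MCM10 had an adjusted p between 0.0385 and 0.28 in this comparison.

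Counts over all genes moved more. With each library centred, 1201 genes were upregulated DEGs in ΔSE12313-b. Testing every transcript, which counts rows and not genes, gave 4200 up and 3164 down in ΔE2, 5705 and 2968 in ΔSE12313-b and 592 and 1057 between the deletions. A change of at least 1.5-fold gave 3109 and 1945, 4124 and 1678, and 492 and 1139. A pseudocount of 1 gave 653 down in ΔE2, 593 down in ΔSE12313-b and 100 up and 140 down between the deletions. A mean FPKM of at least 1 left 673 down in ΔSE12313-b, and an adjusted p under 0.01 left 122 up between the deletions. Leaving out single libraries gave 756 to 1260 down in ΔE2 and 693 to 1100 down in ΔSE12313-b, with the low values without control replicate 2 (756 and 693) or control replicate 1 (759 and 699), where the lone control is assumed to vary like the other groups. Where no construction explains a move, the cause was not tested. Of 315 counts for the lists of genes acting with the licensing genes, 11 changed. The 6 that rose did so with a 1.5-fold change, 5 of them by over 1.5 times. The 5 that fell did so with each library centred (in ΔSE12313-b, firing factors from 11 to 9 and licensing control from 6 to 5) or with quantile normalization (in ΔSE12313-b, 11 to 10 and 6 to 5, and in ΔE2 licensing control from 5 to 4, without GRWD1 at 1.00).

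The labels give replicate numbers in every group, but libraries with the same number did not deviate together (correlations from -0.0804 to 0.107), so the numbers were not taken to pair the libraries. A replicate block changed 0 of 54 results and gave 1474 up and 1056 down in ΔE2, 1962 and 1000 in ΔSE12313-b, and medians of 3.18 and 3.15 for the licensing genes. Depth limits ORC1 and MCM10, which rest on 3 to 10 reads per control library.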

Other observations

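MCM7 holds the precursors of MIR25, MIR93 and MIR106B in an intron, on the same strand (GRCh37 chromosome 7, 99691183 to 99691697 for the 3 together). The libraries held at most 4 reads of any of these precursors, in the controls as in the clones, while MCM7 itself rose, so their levels could not be compared at this depth. By limma MIR93 passed both thresholds downwards in ΔSE12313-b (-3.49, adjusted p = 0.0123). That call rests on 1 read in each control and 0 reads in those clones. All transcript rows of a licensing gene gave nearly the same values, with at most 2.27% between rows of 1 gene in the clone means, and the choice of row did not change which genes were DEGs.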
